A study of Homo sapiens with 18 samples.

Results

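The genes described here are the cyclins and kinases that act after the restriction point of the cell cycle, with the phosphatases that switch those kinases on. They are the E-type cyclins CCNE1 and CCNE2, the A-type cyclin CCNA2, the B-type cyclins CCNB1 and CCNB2, the kinases CDK1 and CDK2, and the phosphatases CDC25A, CDC25B and CDC25C. These 10 genes were chosen by name from the 60656 gene rows of the count table, of which 25113 had a count in any library. All 10 passed the filter on low counts in both cell lines, and the rule that names them uses no measured value, although they were picked with earlier results of these data known.

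RNA was read by 3′-end messenger RNA sequencing in CAMA-1 and ZR-75-1, established breast cancer cell lines that express the oestrogen receptor. Each line was given abemaciclib or palbociclib at 500 nM, or the solvent DMSO, for 5 days. The labels describe the genotype as wild-type, and the titles call the cells of both lines parental, which holds for controls and drug groups alike. Each of the 6 groups had 3 libraries, which the study describes as independent biological replicates.

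Abemaciclib and palbociclib inhibit CDK4 and CDK6, the kinases that start the phosphorylation of the retinoblastoma protein in G1. When that protein is phosphorylated it releases E2F transcription factors, which transcribe cyclin E, cyclin A and other genes needed for S phase. Cyclin E binds CDK2 at the start of S phase, cyclin A then binds CDK2 and CDK1, and cyclin B binds CDK1 to drive mitosis, while CDC25 phosphatases remove the inhibitory phosphates from CDK1 and CDK2. Transcripts of cyclin A, cyclin B and CDK1 are known to be abundant in dividing cells and scarce in resting ones.

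Library totals ran from 2308442 to 4146549 counts, so that 1 count stood for 0.241 to 0.433 CPM (counts-per-million, the unit of all levels below) before scaling. All 8 luminal markers checked, ESR1, GATA3, FOXA1, KRT8, KRT18, KRT19, EPCAM and CDH1, had at least 120 counts in every library. Of 8 markers of leukocytes, endothelium, fibroblasts and basal epithelium, COL1A2, DCN and KRT5 were at 0 in all libraries, and the summed level of the 8 was 10.6 to 23.4 CPM in CAMA-1 and 19.98 to 34.3 CPM in ZR-75-1. The fibroblast marker COL1A1, with group means of 11.5 to 28.6 CPM, made up most of that level and alone passed the filter. It was called lower with abemaciclib in CAMA-1 (log2 fold change −0.58, adjusted p = 0.047). The mitochondrial share of counts was 15.7% ± 0.87 for CAMA-1 with DMSO, 24.8% ± 1.37 under abemaciclib and 23.6% ± 1.15 under palbociclib (SD, n = 3). Their share in ZR-75-1 was 20.2% ± 2.68, 19.5% ± 1.01 and 18.98% ± 0.70. With these genes left out before scaling, 9, 9, 9 and 7 of the 10 genes were called lower in the comparisons below, as many as with them.

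The first question was how each drug changed the 10 transcripts in each line. Both drugs lowered most of them, and none was called higher. In CAMA-1, 9 of the 10 genes were lower with abemaciclib at an adjusted p under 0.05, against 20.1% of all tested genes called lower (edgeR quasi-likelihood test, Benjamini-Hochberg over all genes tested). With palbociclib in that line, 9 of the 10 were lower, against 18.7% of all tested genes. In ZR-75-1, abemaciclib lowered 9 of the 10, against 18.3%, and palbociclib lowered 7 of the 10, against 13.4%. CCNE1 was the gene not called in CAMA-1 with either drug, CDK2 the gene not called with abemaciclib in ZR-75-1, and CCNE1, CDK2 and CDC25A those not called with palbociclib in ZR-75-1.

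The median log2 fold change of the 10 genes was −1.95 with abemaciclib and −1.40 with palbociclib in CAMA-1, where the medians over all tested genes were 0.01 and 0.00. In ZR-75-1 the medians of the 10 were −2.37 with abemaciclib and −0.89 with palbociclib, beside −0.00 and −0.01 over all tested genes. All 3 abemaciclib libraries lay below all 3 DMSO libraries for 10 of the 10 genes in CAMA-1, which was so for 22.4% of all tested genes, and for 9 of the 10 in ZR-75-1, beside 22.9%. The palbociclib libraries lay below the DMSO libraries for 9 of the 10 in CAMA-1, beside 21.5%, and for 7 of the 10 in ZR-75-1, beside 19.5%. In RNA from whole cultures, a smaller number of cells in S, G2 and M phase and less of a transcript in each such cell cannot be told apart.

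**Figure D1:**
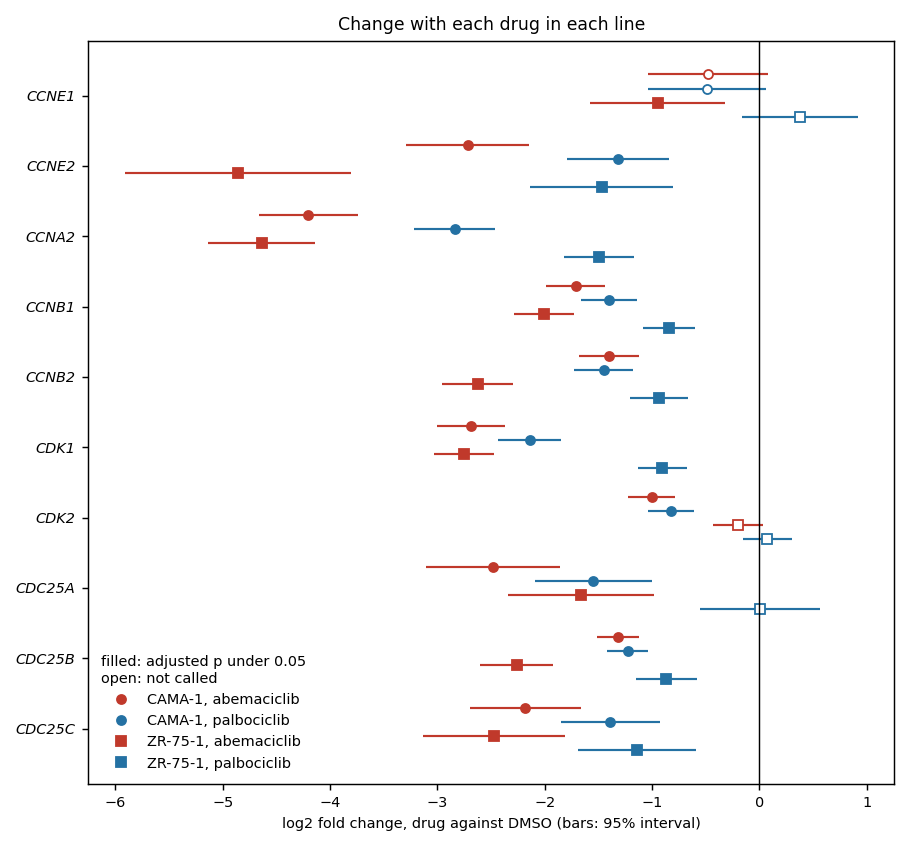
Log2 fold change of each gene against DMSO, in rows, for abemaciclib (red) and palbociclib (blue) in CAMA-1 (circles) and ZR-75-1 (squares), 3 libraries a group, with bars for the 95% interval, filled symbols for an adjusted p under 0.05 and open symbols for no call. CCNA2 with abemaciclib lies at −4.20 and −4.64, CCNE2 with abemaciclib in ZR-75-1 is a fitted point on 3, 0 and 1 counts whose bound is −3.79, and the open symbols are CCNE1, CDK2 and CDC25A.

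Promoter stretches are shown because each of these genes was lower in at least 1 comparison and motifs of E2F and of late cell cycle genes are known from several of them. RefSeq start windows of 300 bases on GRCh38.p14, from 250 bases before the start to 50 after it, were found for 8 of the 10 genes, with several starts for CDK1, CDC25B and CDC25C, while CCNE2 and CDK2 had none in the table. Searched on both strands were the letters TTTGAA and TTCGAA, forms of the cell cycle homology region (CHR) of late cell cycle genes, the letters CCAAT, and the letters TTTGGCGC, TTTCGCGC, TTTCCCGC and TTTGCCGC, forms of the E2F motif. Within a window, no matches in these genes shared bases with one another. Windows of CDK1 and of CDC25C overlap, so a site there can recur, as the E2F letters of CDK1 and the CHR letters of CDC25C do. CHR letters stood in a window of 4 of the 8 genes, CCNB2, CDK1, CDC25B and CDC25C, beside 16.4% of all 34943 windows. CCAAT stood in a window of 7 of the 8, all but CCNE1, beside 34.6% of all windows. The 4 genes with CHR letters each had CCAAT in the same window, which 6.4% of all windows did. E2F letters stood in windows of CDK1 and CDC25A, beside 3.30% of all windows. A gene with several windows had more chances of a match, and a match in these letters describes the window only. The stretches of 30 bases below are read on the strand of the gene, with the matched letters in capitals. In CCNA2 the letters CCAAT lie on the opposite strand and read ATTGG.
CCNB2, chr15:59105105-59105134, plus strand, CHR letters 29 bases before the start: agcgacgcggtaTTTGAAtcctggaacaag
CDC25C, chr5:138331817-138331846, minus strand, CHR letters 30 bases before an internal start: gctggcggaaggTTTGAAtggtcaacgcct
CDK1, chr10:60778453-60778482, plus strand, CHR letters 13 bases before the downstream of its starts: tagcgcggtgagTTTGAAactgctcgcact
CDC25B, chr20:3796260-3796289, plus strand, CHR letters 38 bases before an internal start: ctgctgttatttTTCGAAtatataaggagg
CDC25A, chr3:48188443-48188472, minus strand, E2F letters 44 bases before the start: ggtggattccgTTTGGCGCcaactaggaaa
CDK1, chr10:60778339-60778368, plus strand, E2F letters 128 bases before the downstream of its starts: tttcctctttcTTTCGCGCtctagccaccc
CCNA2, chr4:121823922-121823951, minus strand, CCAAT 56 bases before the start: gcgagcgctttcATTGGtccatttcaatag
CCNB1, chr5:69167083-69167112, plus strand, CCAAT 55 bases before the start: gccacgaacaggCCAATaaggagggagcag

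CCNE1 (ENSG00000105173.14, chromosome 19, 29811991 to 29824312, plus strand, GRCh38) encodes cyclin E1, a partner of CDK2, and its transcript changed least with the drugs among the 5 cyclins. In CAMA-1 it stood at 15.3, 9.71 and 10.1 CPM with DMSO, against 9.53, 7.72 and 8.12 under abemaciclib and 8.18, 10.53 and 6.46 under palbociclib. In ZR-75-1 it stood at 12.8, 13.8 and 10.4 CPM with DMSO, 7.96, 3.82 and 7.50 under abemaciclib, then 8.98, 19.7 and 20.03 under palbociclib. The abemaciclib libraries lay below the DMSO libraries in both lines, in CAMA-1 by a narrow margin, while the palbociclib libraries overlapped DMSO in both. The log2 fold change in CAMA-1 was −0.48 with abemaciclib (95% interval −1.04 to 0.08, adjusted p = 0.17) and −0.49 with palbociclib (−1.04 to 0.06, adjusted p = 0.16), neither of them called. In ZR-75-1, CCNE1 fell with abemaciclib (log2 fold change −0.95, standard error 0.31, adjusted p = 0.0138). Without the second abemaciclib library the value was −0.67 (adjusted p = 0.12), and without the second DMSO library −0.86 (adjusted p = 0.0504). With palbociclib the log2 fold change in ZR-75-1 was 0.38 (−0.16 to 0.92, adjusted p = 0.32). In order of mean level, ZR-75-1 with palbociclib stood first at 16.2 CPM and ZR-75-1 with abemaciclib last at 6.43, and the sole step between neighbours without overlap was that from CAMA-1 with DMSO (11.7) to CAMA-1 with abemaciclib (8.46).

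CCNE2 (ENSG00000175305.17, chromosome 8, 94879770 to 94896678, minus strand) encodes cyclin E2, the second partner of CDK2 of this type and a well-known E2F target. In CAMA-1 it stood at 25.2, 23.1 and 21.1 CPM with DMSO, at 2.91, 3.86 and 4.06 with abemaciclib, and at 12.3, 6.54 and 9.18 with palbociclib. In ZR-75-1 it stood at 15.4, 11.7 and 17.6 CPM with DMSO and at 6.45, 5.43 and 4.12 with palbociclib. The abemaciclib libraries of ZR-75-1 held 3, 0 and 1 counts, at or under the floor of 3 counts per library. Drug and DMSO libraries did not overlap in any of the 4 comparisons, and abemaciclib libraries also lay below palbociclib libraries in both lines. The transcript fell in CAMA-1, with a log2 fold change of −2.72 for abemaciclib (standard error 0.28, adjusted p = 1.28e-10) and of −1.32 for palbociclib (standard error 0.23, adjusted p = 1.34e-05). In ZR-75-1 it was at least 13.9-fold lower with abemaciclib than with DMSO, taking 3 counts in each abemaciclib library, and was called lower (adjusted p = 3.08e-11). Palbociclib lowered it in that line by a log2 fold change of −1.47 (standard error 0.33, adjusted p = 0.000463). The 3′ end of CCNE2 overlaps INTS8 on the opposite strand over 1977 bases. INTS8, read from the same fit, was lower with abemaciclib in CAMA-1 (log2 fold change −0.59, adjusted p = 0.0111) and was not called in the other comparisons with DMSO, with −0.37 for palbociclib in CAMA-1 and −0.69 and −0.19 for abemaciclib and palbociclib in ZR-75-1.

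CCNA2 (ENSG00000145386.11, chromosome 4, 121816444 to 121823883, minus strand) encodes cyclin A2, which binds CDK2 in S phase and CDK1 later. Its fall was the largest of the 10 genes in 3 of the 4 comparisons with DMSO, by the fitted values. In CAMA-1 its level was 71.2, 70.3 and 70.8 CPM with DMSO, 3.18, 6.44 and 2.81 under abemaciclib, then 8.90, 14.5 and 6.46 under palbociclib. In ZR-75-1 it was 66.8, 60.1 and 61.5 CPM with DMSO, 1.66, 3.13 and 2.76 under abemaciclib, then 17.4, 20.3 and 29.2 under palbociclib. Abemaciclib thus left 5.85% of the DMSO level in CAMA-1 and 4.01% in ZR-75-1, and palbociclib 14.1% and 35.5%. The abemaciclib log2 fold change was −4.20 in CAMA-1 (standard error 0.23, adjusted p = 3.63e-19) against −4.64 in ZR-75-1 (standard error 0.25, adjusted p = 7.45e-23). For palbociclib it was −2.84 (standard error 0.19, adjusted p = 2.18e-16) against −1.50 (standard error 0.16, adjusted p = 1.08e-10). Ranked by mean level, all neighbouring groups were apart but CAMA-1 with abemaciclib (4.14 CPM) and ZR-75-1 with abemaciclib (2.52 CPM). EXOSC9 overlaps the 3′ end of CCNA2 on the opposite strand over 578 bases. It also fell in all 4 comparisons, with log2 fold changes of −1.09 and −0.89 for abemaciclib and palbociclib in CAMA-1 and of −0.68 and −0.53 in ZR-75-1, each closer to 0 than that of CCNA2. Whether the counting used strand was not stated, and the share of reads that either gene took from the other was not tested.

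**Figure D2:**
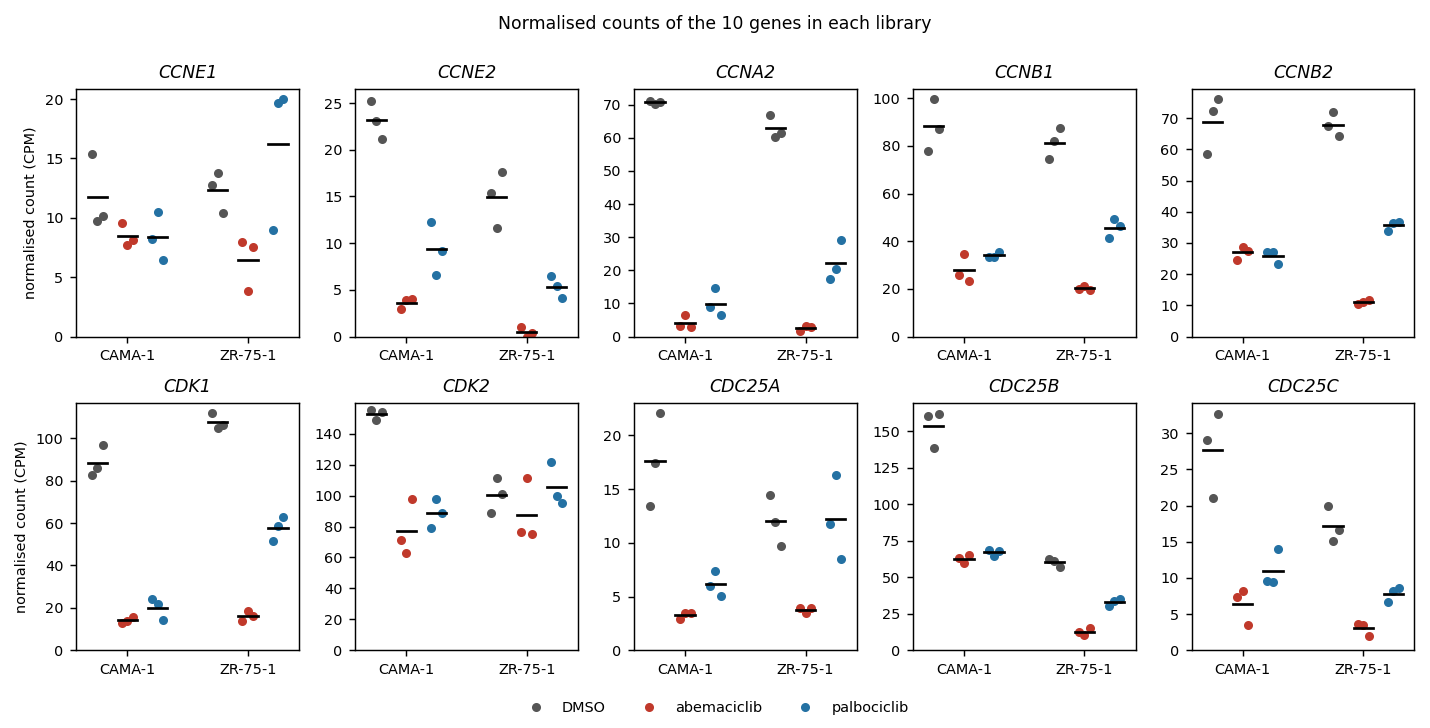
Normalised counts (CPM, linear axes from 0, a scale of its own for each gene) of the 10 genes in the 18 libraries, with a point for each library, a black line for the mean of the 3 libraries, and grey, red and blue for DMSO, abemaciclib and palbociclib. CCNA2 drops from 60.1 CPM or more in every DMSO library to 6.44 CPM or less in every abemaciclib library, whereas the CDK2 libraries of ZR-75-1 lie between 75.4 and 121 CPM in all 3 groups.

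CCNB1 (ENSG00000134057.15, chromosome 5, 69167135 to 69178245, plus strand) encodes cyclin B1, the main partner of CDK1 at entry into mitosis. The DMSO libraries of CAMA-1 held 77.9, 99.8 and 86.9 CPM, those with abemaciclib 25.7, 34.8 and 23.4, and those with palbociclib 33.5, 33.3 and 35.4. In ZR-75-1 the libraries held 74.3, 82.2 and 87.4 CPM with DMSO, 19.9, 21.2 and 19.7 under abemaciclib, then 41.2, 49.2 and 46.2 under palbociclib. All drug libraries were below all DMSO libraries, and the 2 drugs overlapped in CAMA-1 but not in ZR-75-1. For CAMA-1 the log2 fold changes of CCNB1 were −1.71 and −1.40 (standard error 0.14 and 0.13, adjusted p = 6.92e-14 and 5.59e-12). Those of ZR-75-1 were −2.01 and −0.84 (standard error 0.14 and 0.12, adjusted p = 6.54e-18 and 1.74e-07), which left 24.9% and 56.01% of the DMSO level.

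CCNB2 (ENSG00000157456.8, chromosome 15, 59105126 to 59125045, plus strand) encodes cyclin B2, a second mitotic partner of CDK1. CAMA-1 held 58.5, 72.3 and 76.1 CPM with DMSO, 24.6, 28.8 and 27.5 under abemaciclib, then 27.0, 27.0 and 23.1 under palbociclib. ZR-75-1 held 67.5, 72.1 and 64.3 CPM with DMSO, 10.3, 11.1 and 11.8 under abemaciclib, then 33.9, 36.3 and 36.8 under palbociclib. In CAMA-1 the drug groups overlapped each other and in ZR-75-1 they stood well apart, with abemaciclib lower. Its log2 fold changes in CAMA-1 were −1.40 and −1.45 (standard error 0.14 each, adjusted p = 3.27e-11 and 9.23e-12), and −2.62 and −0.93 in ZR-75-1 (standard error 0.17 and 0.13, adjusted p = 7.63e-20 and 1.26e-07). A long non-coding RNA annotated on the same strand, ENSG00000259732, shares 4012 bases with this gene, so reads there could not be assigned to one of them by strand.

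CDK1 (ENSG00000170312.16, chromosome 10, 60778331 to 60794852, plus strand) is the kinase of mitosis. Its transcript fell in each comparison. Solvent-treated CAMA-1 held 82.7, 86.1 and 96.7 CPM and ZR-75-1 112, 104.6 and 106 CPM. With abemaciclib the libraries held 13.0, 13.7 and 15.6 CPM in CAMA-1 and 13.6, 18.4 and 16.2 CPM in ZR-75-1. With palbociclib they held 24.3, 21.9 and 14.3 CPM in CAMA-1, but 51.3, 58.7 and 63.0 CPM in ZR-75-1, above all 3 palbociclib libraries of CAMA-1. With abemaciclib the log2 fold changes were −2.69 in CAMA-1 (standard error 0.16, adjusted p = 3.91e-18) and −2.75 in ZR-75-1 (standard error 0.14, adjusted p = 9.14e-24). With palbociclib they were −2.14 (standard error 0.14, adjusted p = 4.47e-16) and −0.90 (standard error 0.11, adjusted p = 4.14e-09). The 3 lowest groups, CAMA-1 with palbociclib and both lines with abemaciclib, overlapped with their neighbours in the order of levels.

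CDK2 (ENSG00000123374.11, chromosome 12, 55966781 to 55972789, plus strand) is the kinase that cyclins E and A bind in S phase. In CAMA-1 it had 155, 149 and 154 CPM with DMSO, 71.2, 63.1 and 97.5 under abemaciclib, then 78.9, 97.6 and 88.8 under palbociclib. In ZR-75-1 it had 88.4, 111 and 101 CPM with DMSO, 76.3, 111 and 75.4 under abemaciclib, then 121, 99.7 and 95.1 under palbociclib. The drug libraries of CAMA-1 all lay below DMSO, and those of ZR-75-1 overlapped DMSO with both drugs. CDK2 fell in CAMA-1, with log2 fold changes of −1.01 for abemaciclib (standard error 0.11, adjusted p = 2.82e-10) and −0.82 for palbociclib (standard error 0.11, adjusted p = 2.06e-08), which left 50.6% and 57.9% of the DMSO level. In ZR-75-1 the log2 fold changes were −0.20 (95% interval −0.43 to 0.04, adjusted p = 0.19) and 0.07 (−0.16 to 0.30, adjusted p = 0.69). The missing abemaciclib call turned on 1 library: without the second abemaciclib library it was −0.40 (adjusted p = 0.00973), past the threshold. PMEL, on the opposite strand, covers the whole of CDK2 (6009 bases). The 3′ end of PMEL, at 55954105, lies outside CDK2, away from the 3′ end of CDK2 that the kit reads. Whether any reads were shared was not tested.

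CDC25A (ENSG00000164045.12, chromosome 3, 48157146 to 48188417, minus strand) encodes the phosphatase that acts on CDK2 at the start of S phase and whose gene is an E2F target. The DMSO libraries held 13.4, 17.4 and 22.1 CPM in CAMA-1 and 14.4, 12.0 and 9.67 CPM in ZR-75-1. The abemaciclib libraries held 2.91, 3.43 and 3.44 CPM in CAMA-1 and 3.98, 3.47 and 3.95 CPM in ZR-75-1, from 8 to 12 counts each, without overlap with DMSO. With palbociclib the levels were 6.02, 7.40 and 5.10 CPM in CAMA-1, below DMSO, and 11.8, 16.3 and 8.54 CPM in ZR-75-1, spread across the DMSO range. In CAMA-1, CDC25A had log2 fold changes of −2.48 for abemaciclib (standard error 0.31, adjusted p = 1.06e-08) and −1.55 for palbociclib (standard error 0.27, adjusted p = 9.81e-06), and in ZR-75-1 of −1.66 for abemaciclib (standard error 0.34, adjusted p = 6.85e-05). With palbociclib in ZR-75-1 the value was 0.00 (95% interval −0.55 to 0.56, adjusted p = 0.99).

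CDC25B (ENSG00000101224.17, chromosome 20, 3786772 to 3806121, plus strand) encodes a phosphatase that starts the activation of CDK1 at the end of G2. In CAMA-1 the libraries had 161, 139 and 162 CPM with DMSO, 63.0, 60.1 and 65.6 under abemaciclib, then 68.6, 64.6 and 68.4 under palbociclib. In ZR-75-1 they had 62.9, 61.1 and 57.01 CPM with DMSO, 12.3, 10.8 and 15.0 under abemaciclib, then 30.3, 33.9 and 35.3 under palbociclib. The DMSO libraries of ZR-75-1 thus overlapped the abemaciclib libraries of CAMA-1. The log2 fold changes in CAMA-1 were −1.32 and −1.23 (standard error 0.097 and 0.095, adjusted p = 5.13e-15 and 2.84e-14), and −2.26 and −0.87 in ZR-75-1 (standard error 0.17 and 0.14, adjusted p = 6.01e-17 and 2.08e-06).

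CDC25C (ENSG00000158402.20, chromosome 5, 138285269 to 138338355, minus strand) encodes the phosphatase that acts on the CDK1 and cyclin B complex in mitosis. CAMA-1 had 29.1, 21.1 and 32.6 CPM with DMSO, 7.41, 8.15 and 3.44 under abemaciclib, then 9.63, 9.39 and 13.9 under palbociclib. ZR-75-1 had 19.98, 15.03 and 16.6 CPM with DMSO, 3.65, 3.47 and 1.97 under abemaciclib, then 6.73, 8.14 and 8.54 under palbociclib. Drug and DMSO libraries did not overlap, and the abemaciclib libraries lay below the palbociclib libraries in both lines. The log2 fold changes in CAMA-1 were −2.18 and −1.39 (standard error 0.26 and 0.23, adjusted p = 2.64e-09 and 3.69e-06), and −2.47 and −1.14 in ZR-75-1 (standard error 0.33 and 0.27, adjusted p = 1.14e-08 and 0.000963). FAM53C overlaps this gene on the opposite strand over 6421 bases near its start, away from the 3′ end that the kit reads.

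Ratios of close relatives within a library, which need no scaling between libraries, were then compared between drug and DMSO. The count of each gene was raised by 0.5, and only changes of the ratio are given, since the levels of different genes are not comparable per length here. The log2 ratio of CDK1 to CDK2 changed by −1.63 and −1.37 in CAMA-1 for abemaciclib and palbociclib in turn, and in ZR-75-1 by −2.53 and −0.97. That of CCNE2 to CCNE1 changed by −2.20 and −0.87 in CAMA-1, and by −3.94 and −1.77 in ZR-75-1, where the value with abemaciclib rests on 3, 0 and 1 counts of CCNE2. In all 8 of these cases the drug and DMSO libraries did not overlap, and the exact permutation test, two-sided, returned p = 0.1, the smallest that 3 against 3 libraries allow (0.14 adjusted over 20 ratio tests). For CCNB2 to CCNB1 the change was 0.32 and −0.05 in CAMA-1 (exact p = 0.2 and 0.7), and −0.61 and −0.09 in ZR-75-1 (exact p = 0.1 and 0.5). The ratio of CDC25A to CDC25B changed by −1.07 and −0.29 in CAMA-1 (exact p = 0.1 and 0.3), but by 0.65 and 0.85 in ZR-75-1 (exact p = 0.1 each), where drug libraries lay above all DMSO libraries. For CDC25C to CDC25B the changes were −0.88 and −0.13 in CAMA-1 (exact p = 0.1 and 0.6), and −0.22 and −0.26 in ZR-75-1 (exact p = 0.9 and 0.1).

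The next question was whether the 2 inhibitors, at the same dose and time, left different levels. In CAMA-1, 2 of the 10 genes were lower with abemaciclib than with palbociclib, where 1.53% of all tested genes were. They were CCNE2, with a log2 fold change of −1.40 (standard error 0.32, adjusted p = 0.00678), and CCNA2, with −1.36 (standard error 0.30, adjusted p = 0.00543). Neither call held without the first abemaciclib library of CAMA-1, where CCNE2 had −1.23 (adjusted p = 0.0731) and CCNA2 −1.19 (adjusted p = 0.0712). CCNE2 was also not called without the first palbociclib library (−1.12, adjusted p = 0.13), nor CCNA2 without the third abemaciclib library (−1.17, adjusted p = 0.0783) or the second palbociclib library (−1.01, adjusted p = 0.12). For CCNB2, CDC25B and CCNE1 the differences were 0.05 (95% interval −0.26 to 0.36), −0.09 (−0.30 to 0.12) and 0.01 (−0.57 to 0.60). CDK1 had −0.54 (−0.92 to −0.17, adjusted p = 0.14), and without the third palbociclib library it was called, at −0.71 (adjusted p = 0.0316). The intervals of CDC25A (−0.94, −1.65 to −0.22), CDC25C (−0.79, −1.38 to −0.21) and CCNB1 (−0.31, −0.615 to −0.003) also lay below 0. Their adjusted p of 0.202, 0.173 and 0.381 did not pass. CDK2 had −0.18 (−0.41 to 0.05, adjusted p = 0.54).

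In ZR-75-1, 9 of the 10 genes were lower with abemaciclib than with palbociclib, against 7.94% of all tested genes, and CDK2 was the exception at −0.27 (95% interval −0.50 to −0.04, adjusted p = 0.12). CCNA2 had a log2 fold change of −3.14 (standard error 0.29, adjusted p = 5.39e-13), CDK1 of −1.85 (standard error 0.15, adjusted p = 7.73e-15) and CCNB2 of −1.69 (standard error 0.18, adjusted p = 4.91e-11). CCNE2 was at least 4.97-fold lower, and the other 5 genes had values from −1.66 to −1.16. CDC25C had −1.33 (adjusted p = 0.00764), which became −1.12 (adjusted p = 0.059) without the third abemaciclib library, and CDK2 was called at −0.47 (adjusted p = 0.00686) without the second.

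Whether the lines responded differently was tested by subtracting the CAMA-1 response from that of ZR-75-1 on the log2 scale, over all 18 libraries. For abemaciclib, 4 of the 10 genes differed, beside 18.2% of all tested genes in either direction. CCNB2 (−1.25, standard error 0.22, adjusted p = 1.66e-05) and CDC25B (−0.97, standard error 0.19, adjusted p = 8.55e-05) fell further in ZR-75-1. CDK2 fell in CAMA-1 and was not called lower in ZR-75-1, with a difference of 0.78 (standard error 0.17, adjusted p = 0.00045). CCNE2 was called at −2.17 (adjusted p = 0.0228), a fitted value that rests on counts at the floor in ZR-75-1. With CCNE2 of ZR-75-1 set to 3 counts per library the difference of log2 means was −1.11, and the call was lost without the third abemaciclib library of CAMA-1 (−2.01, adjusted p = 0.0592), or the second (−1.61, adjusted p = 0.13) or the third (−2.08, adjusted p = 0.0625) of ZR-75-1. CDK1 had a difference of −0.09 (95% interval −0.55 to 0.37) and CCNA2 of −0.46 (−1.37 to 0.45).

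For palbociclib, 5 of the 10 genes had a higher log2 fold change in ZR-75-1 than in CAMA-1, against 10.0% of all tested genes. In ZR-75-1, CCNA2, CDK1 and CCNB1 fell less far than in CAMA-1, and CDC25A and CDK2 were not called lower. CDC25A differed by 1.52 (standard error 0.39, adjusted p = 0.00259), CCNA2 by 1.32 (standard error 0.26, adjusted p = 0.000107), CDK1 by 1.21 (standard error 0.18, adjusted p = 5.98e-07), CDK2 by 0.87 (standard error 0.17, adjusted p = 4.78e-05) and CCNB1 by 0.53 (standard error 0.18, adjusted p = 0.0243). The CCNB1 call was lost without the second DMSO library of CAMA-1 (0.48, adjusted p = 0.0667), or the first DMSO (0.47, adjusted p = 0.0721) or second palbociclib library (0.48, adjusted p = 0.0702) of ZR-75-1. CCNB2 had 0.49 (95% interval 0.11 to 0.87, adjusted p = 0.0574) and was called without the first DMSO library of CAMA-1 (0.63, adjusted p = 0.0178), its second palbociclib library (0.56, adjusted p = 0.0485) or the second DMSO library of ZR-75-1 (0.57, adjusted p = 0.0384). CCNE2, CDC25C and CDC25B had differences of −0.18 (95% interval −0.97 to 0.61), 0.22 (−0.50 to 0.94) and 0.33 (0.01 to 0.65), none of them called. CCNE1 had 0.84 (adjusted p = 0.13) and was called, at 1.14 (adjusted p = 0.0269), without the first palbociclib library of ZR-75-1.

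The gap between the 2 drugs itself differed between the lines for 5 of the 10 genes, all with a lower value in ZR-75-1, beside 1.77% of all tested genes. These were CCNA2 (−1.78, adjusted p = 0.0224), CCNB2 (−1.74, adjusted p = 1.7e-07), CDC25B (−1.30, adjusted p = 3.24e-06), CDK1 (−1.30, adjusted p = 0.000296) and CCNB1 (−0.85, adjusted p = 0.0111). Without the second abemaciclib library of CAMA-1 there were 3 calls, with CCNA2 at −1.39 (adjusted p = 0.21) and CCNB1 at −0.67 (adjusted p = 0.11). The CCNA2 call was also lost without the first or the third palbociclib library of CAMA-1, the first abemaciclib library of ZR-75-1 or the third palbociclib library of that line, with adjusted p of 0.059, 0.065, 0.12 and 0.0791.

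**Figure D3:**
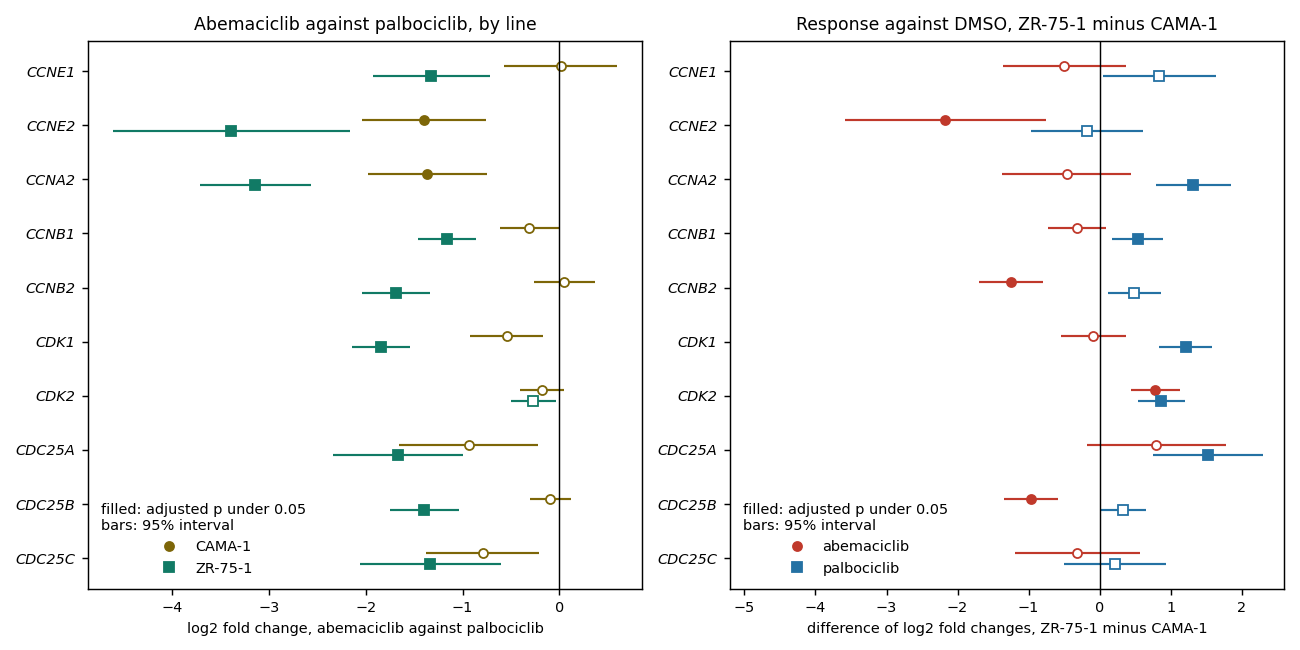
Left, log2 fold change of abemaciclib against palbociclib for each gene in CAMA-1 (circles) and ZR-75-1 (squares). Right, the response of ZR-75-1 less that of CAMA-1 (difference of log2 fold changes against DMSO), for abemaciclib (circles) and palbociclib (squares), with 95% intervals as bars and filled symbols for an adjusted p under 0.05. In the left panel the filled symbols of ZR-75-1 lie between −1.16 and −3.14, apart from CCNE2, a fitted point on 3, 0 and 1 counts whose bound is −2.31, and in the right panel CDK2 lies above 0 for both drugs, at 0.78 and 0.87.

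The starting levels of the lines were compared with DMSO alone, where line and anything else that differed between the cultures cannot be told apart. Of the 10 genes, 5 differed, beside 61.3% of all tested genes in either direction. The genes lower in ZR-75-1 were CDC25B, at a log2 difference of −1.35 (standard error 0.10, adjusted p = 7e-18), CDC25C at −0.69 (standard error 0.22, adjusted p = 0.00618), CCNE2 at −0.64 (standard error 0.25, adjusted p = 0.0228) and CDK2 at −0.61 (standard error 0.12, adjusted p = 6.25e-06). CDK1 was higher in ZR-75-1, by 0.28 (standard error 0.11, adjusted p = 0.0318), a call that was lost on leaving out any of the 6 DMSO libraries except the third of CAMA-1, with adjusted p of 0.0567 to 0.24. The CCNE2 call was lost without the first DMSO library of CAMA-1 (adjusted p = 0.0539) or the second of ZR-75-1 (adjusted p = 0.0902). CCNB2 (−0.03, 95% interval −0.27 to 0.22), CCNB1 (−0.12, −0.35 to 0.12) and CCNA2 (−0.17, −0.47 to 0.13) started at levels whose difference did not pass the test. Nor did CCNE1 (0.08, −0.47 to 0.64) or CDC25A (−0.56, −1.08 to −0.05, adjusted p = 0.0526). CDC25A was called without the first DMSO library of CAMA-1 (−0.78, adjusted p = 0.0148) or that of ZR-75-1 (−0.71, adjusted p = 0.0366).

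Of all tested genes in CAMA-1, abemaciclib lowered 20.1% and raised 20.3%, while palbociclib lowered 18.7% and raised 18.4%. Of those in ZR-75-1, abemaciclib lowered 18.3% and raised 17.9%, while palbociclib lowered 13.4% and raised 14.5%, and the medians over all tested genes lay between −0.01 and 0.01 throughout. Regulators of CDK1 and CDK2 gave the wider setting, as a list of 23 kinases, inhibitors, ubiquitin ligase subunits and checkpoint genes. With abemaciclib in CAMA-1, 16 of 23 tested were lower and 2 higher, with a median log2 fold change of −0.85. With palbociclib there, 16 of 23 were lower and 1 higher (median −0.97). In ZR-75-1, 16 of 22 were lower and 2 higher with abemaciclib (median −1.12), and 15 of 22 were lower and none higher with palbociclib (median −0.65). PLK1, the mitotic kinase that acts on CDC25C, had log2 fold changes of −2.62 and −2.28 in CAMA-1 and of −4.17 and −1.11 in ZR-75-1, for abemaciclib and palbociclib in turn. CDKN3, a phosphatase of CDK1 and CDK2, had −3.07 and −2.19, then −4.10 and −1.26, with 3 to 17 counts in the abemaciclib libraries of ZR-75-1. PKMYT1, which places an inhibitory phosphate on CDK1, had −2.29 and −1.52, then −1.83 and −0.59. FBXO5, an inhibitor of the anaphase-promoting complex, had −0.92 and −1.14 in CAMA-1 but −3.77 and −1.34 in ZR-75-1. Its abemaciclib libraries of ZR-75-1 held 2 to 10 counts. AURKA, CCNF and CDC20 were also lower in all 4 comparisons, at −2.07 to −0.66. All the regulators named so far passed the test in each, but they were named for the size of their change in these same comparisons. Of the others, CDK7 was called higher with abemaciclib in both lines, at 0.81 in CAMA-1 and 1.04 in ZR-75-1. FBXW7 was called higher with abemaciclib in ZR-75-1, at 0.25 (adjusted p = 0.0491).

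CDKN1A, which encodes the CDK inhibitor p21, rose in CAMA-1 and fell in ZR-75-1. It stood at 8.04 to 12.6 CPM with DMSO in CAMA-1, at 33.9 to 43.7 with abemaciclib and at 28.4 to 37.0 with palbociclib. In ZR-75-1 it stood at 133 to 156 CPM with DMSO, at 22.9 to 28.1 with abemaciclib and at 65.4 to 78.0 with palbociclib. The groups of a line did not overlap between drug and DMSO. Its log2 fold changes in CAMA-1 were 1.99 and 1.64 (adjusted p = 9.66e-12 and 2.73e-09) and −2.48 and −1.04 in ZR-75-1 (adjusted p = 2.03e-24 and 5.03e-12). The difference between lines was −4.49 for abemaciclib (standard error 0.22, adjusted p = 7.89e-26) and −2.70 for palbociclib (standard error 0.21, adjusted p = 2.39e-16).

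Transcription factors of the G1/S and G2/M gene programmes were read in the same way, as a list of 14, against the same shares of all tested genes. In CAMA-1, 8 of 13 tested were lower and 1 higher with abemaciclib (median −1.21), and 8 lower and none higher with palbociclib (median −0.92). In ZR-75-1, 8 of 14 were lower and 1 higher with abemaciclib (median −0.90, also with E2F7 and E2F8, which were at or under 3 counts, at their bounds), and 6 lower and 2 higher with palbociclib (median −0.38). FOXM1, which drives transcription of cyclin B genes, fell in all 4 comparisons, with −2.64 and −2.35 in CAMA-1, then −2.37 and −0.75. MYBL2, a partner of the complex that binds CHR elements, did so with −2.02 and −1.62, then −1.77 and −0.36. E2F1 fell in CAMA-1, with −1.62 and −0.92, and with abemaciclib in ZR-75-1, with −1.03, and had −0.19 with palbociclib there (adjusted p = 0.304). E2F2 fell in all 4, with −2.43 and −1.62, then −3.83 and −1.25. Its abemaciclib libraries of ZR-75-1 held 2 to 8 counts. E2F8 had at most 1 count in the abemaciclib libraries of ZR-75-1, at least 6.13-fold lower than with DMSO, and had −2.22 and −2.57 in CAMA-1 and −2.97 with palbociclib in ZR-75-1, all called. The palbociclib libraries of ZR-75-1 held 1 to 5 counts of E2F8. RBL1 and TFDP1 had −1.94 to −0.78 for either drug in CAMA-1 and abemaciclib in ZR-75-1, all called. With palbociclib in ZR-75-1, TFDP1 was called at −0.41 and RBL1 was not (−0.69, adjusted p = 0.0534). LIN54 was called lower at −0.70 and −0.58 in CAMA-1 and had −0.24 and −0.11 in ZR-75-1, not called. These factors were also named for the size of their change in the same comparisons. Of the others, E2F3 was called higher with abemaciclib, at 0.26 in CAMA-1 and 0.77 in ZR-75-1.

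**Figure D4:**
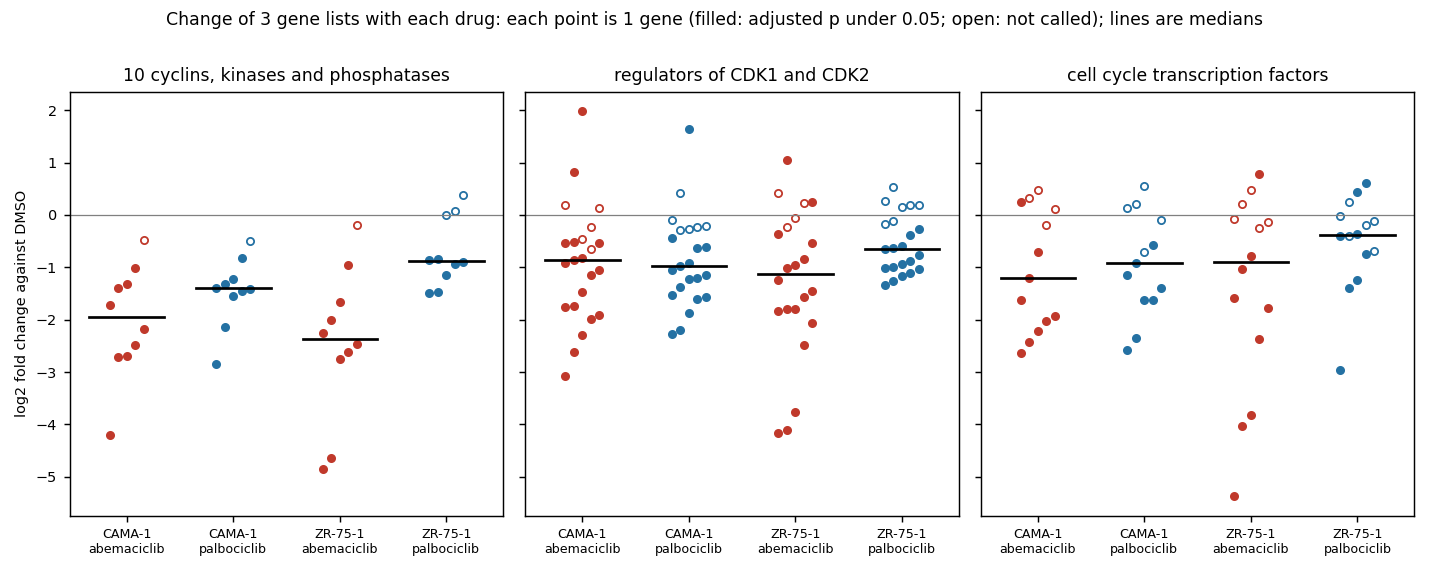
Log2 fold change against DMSO of each gene of 3 lists (the 10 genes, the regulators of CDK1 and CDK2, and the transcription factors) in the 4 comparisons, with filled points for an adjusted p under 0.05, open points for no call, and black lines for medians. The medians of the 10 genes run from −0.89 to −2.37, the points at 1.99 and 1.64 among the regulators are CDKN1A in CAMA-1, and the CCNE2, E2F7 and E2F8 points for abemaciclib in ZR-75-1 are fitted on at most 3 counts a library.

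The tissue-restricted relatives CCNA1, a cyclin A of the germ line, and CCNB3 did not pass the filter in either line. CCNA1 had at most 2 counts and CCNB3 at most 6 in any library.

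The responses of the 10 genes were also set beside each other and beside all other genes, as the root mean square difference of the 4 log2 fold changes against DMSO, among 9706 genes that averaged 10 counts or more in each line. The 2 drugs share the DMSO libraries of a line, and with 4 values per gene the measure is a description only. Of the 45 pairs of the 10 genes the closest were CDC25B and CCNB2 (0.22), CDC25B and CCNB1 (0.25), and CCNB1 and CCNB2 (0.35). CCNE1 was closest to CDK2 among the 10 (0.51) and CCNA2 to CCNE2 (1.07). Over all genes, CDK1 was nearest to BIRC5 (0.12), CCNB2 to DEPDC1 (0.15), CDC25C to CIT (0.15), CDC25B to CENPE (0.11) and CCNB1 to NCAPH2 (0.05). CCNA2 had CDCA3 as its nearest gene, at 0.39, CCNE2 had RNF157, at 0.42, and CDC25A had CHRNA5, at 0.28. All distances to CCNE2, that of CCNA2 included, use its fitted abemaciclib value in ZR-75-1. That value rests on 3, 0 and 1 counts and is secure only as the bound of −3.79. Which genes lie nearest to CCNE2 at that bound was not tested. CCNE1 was nearest to PCGF1 (0.11) and CDK2 to INO80E (0.05).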

How the data were processed

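The deposited table held raw counts per gene in 18 libraries, made by the authors: reads were trimmed with BBDuk, aligned to hg38 with STAR 2.7.5b and counted on GENCODE genes with featureCounts 2.0.1. Strand use, treatment of multiply aligned reads and molecular identifiers were not stated, and the labels and methods differ on the direction of the QuantSeq kit. Each line was fitted in edgeR 4.0.16 (R 4.3.3) on its 9 libraries with filterByExpr, TMM scaling and the quasi-likelihood F test; 11053 and 11017 genes were tested. Differences between lines came from 1 fit over all 18 libraries (11987 genes). P-values were adjusted by Benjamini and Hochberg's method across every tested gene, and calls needed an adjusted p under 0.05. CPM values use TMM factors over all 18 libraries. Floors and intervals cover counting error or the spread between libraries only. The 10 genes, the lists and the rule for named genes (at most 8 of each list, by mean absolute change) were chosen with earlier results of these data known. The code was tested on simulated counts. Coordinates are from GENCODE release 44 on GRCh38, and promoter windows from RefSeq (GRCh38.p14). Alternatives were DESeq2 1.42.0, other scalings and filters, a replicate block and leaving out each library.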

Additional observations from a re-analysis of the deposited data

Results flagged for a closer look

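These 14 differences between CAMA-1 and ZR-75-1 passed the test of the interaction itself and are given as values. Subtracting the CAMA-1 response from that of ZR-75-1, the abemaciclib difference was −2.17 for CCNE2, −1.25 for CCNB2, −0.97 for CDC25B and 0.78 for CDK2, on the log2 scale. The palbociclib response differed in the same sense by 1.32 for CCNA2, 0.53 for CCNB1, 1.21 for CDK1, 0.87 for CDK2 and 1.52 for CDC25A. The gap between abemaciclib and palbociclib, ZR-75-1 less CAMA-1, was −1.78 for CCNA2, −0.85 for CCNB1, −1.74 for CCNB2, −1.30 for CDK1 and −1.30 for CDC25B. Of the 14, 10 were called under all 19 other settings run for them, the 2-fold requirement not counted. Those that were not are CCNE2 with abemaciclib, CCNB1 with palbociclib, and CCNA2 and CCNB1 in the gap between the drugs.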

How the results depend on the processing

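No difference of the 10 genes changed direction past the threshold under any alternative run. Of 34 falls against DMSO, 33 were called under all 14 other settings, the 2-fold requirement not counted, and CCNE1 with abemaciclib in ZR-75-1 was not. Requiring a 2-fold change as well left 3 genes called for palbociclib in ZR-75-1, 2 and 3 for the abemaciclib and palbociclib responses between lines, and 1 for the DMSO levels. Also under 2-fold were CDK2 with palbociclib in CAMA-1 (−0.82), CCNE1 with abemaciclib in ZR-75-1 (−0.95) and CCNB1 in the gap between the drugs (−0.85). Leaving out 1 library at a time gave 9 calls for either drug in CAMA-1, 8 to 9 and 7 for abemaciclib and palbociclib in ZR-75-1, 0 to 3 and 8 to 10 for abemaciclib against palbociclib in CAMA-1 and ZR-75-1, 3 to 4 and 4 to 6 for the abemaciclib and palbociclib responses between lines, 3 to 6 for the gap between the drugs, and 3 to 5 for the DMSO levels. Where a group was left with 2 libraries, the spread was pooled over the others. Without a filter beyond 1 count, CCNB1 lost its call for the palbociclib response between lines (0.53, adjusted p = 0.0539) and CDK1 its call for the DMSO level (0.27, adjusted p = 0.0654). CCNB2 gained a call for the palbociclib response between lines without mitochondrial genes (0.53, adjusted p = 0.0374) and with a mean of at least 10 counts (0.51, adjusted p = 0.0412), where CDC25A gained one for the DMSO level (−0.58, adjusted p = 0.0445). With 2 counts added in place of 0.5, the ratio of CDC25C to CDC25B with palbociclib in ZR-75-1 was −0.23 (exact p = 0.3) in place of −0.26 (exact p = 0.1). The cause was not tested.

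Replicate numbers are shared by the groups in the labels. Deviations of the 18 same-numbered pairs from their group means correlated at −0.078 to 0.043, so the numbers were taken as names only. With the replicate block the calls were 9 and 9 against DMSO in CAMA-1, 9 and 7 in ZR-75-1, 2 and 9 between the drugs, 4, 5 and 5 for the differences between lines, and 5 for the DMSO levels, as many as without it; DESeq2 gave the same counts.

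Depth limits CCNE2 in ZR-75-1 with abemaciclib to a bound, and counts of 5 to 28 in abemaciclib libraries leave wide intervals for CCNA2, CDC25A and CDC25C.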
